A study of Caenorhabditis elegans with 10 samples.

Results

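The insulin-like block was followed in all 10 arrays of a study of the sensory neurons PVD and OLL in *Caenorhabditis elegans*. Its members are the rows whose WormBase gene identifiers run from WBGene00002084 to WBGene00002120, a run of identifiers taken to hold the genes *ins-1* to *ins-37*. All 37 identifiers were present, out of 18451 rows. The files used here name rows by identifier only, and the RefSeq annotation table used here (WBcel235, 46926 rows) holds 0 of the 18451 identifiers. The members are therefore called by identifier throughout, and no single identifier is tied to an *ins* symbol, a role or a position.

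Insulin-like peptides are small secreted hormones. In *C. elegans* they act through the insulin receptor homologue DAF-2 and a kinase cascade that keeps the transcription factor DAF-16 out of the nucleus. The family is unusually large in this animal, many of its genes are expressed in neurons, and different peptides are known as agonists or antagonists of DAF-2. Through them the animal sets dauer formation, growth, metabolism and lifespan. The RefSeq table lists 37 symbols from *ins-1* to *ins-37*, the same number as the rows, and all 37 are protein-coding genes, of 335 to 2788 bases. Of these, 15 lie on chromosome II, 10 on I, 5 on III, 4 on IV, 2 on V and 1 on X. Of the 37, 22 have another insulin-like gene as their next protein-coding neighbour. Related, neighbouring genes can share sequence, and whether probes were shared between members was not tested.

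Larvae at the L2/L3 stages were grown at 25 °C. The 4 groups were wild-type (N2) PVD/OLL with 3 arrays, *mec-3(e1338)* PVD/OLL with 3 arrays, N2 whole animals with 2 arrays and *mec-3(e1338)* whole animals with 2 arrays, and the labels number the arrays of a group as biological replicates. The MEC-3 protein is a transcription factor of the LIM homeodomain class that specifies touch neurons and shapes the PVD dendrite. For PVD/OLL, messages bound to PAB-1, a poly(A) binding protein carrying a 3X FLAG tag, were pulled down. The tag was driven by the *ser-2* promoter fragment ser-2prom3B, so PVD and OLL RNA are not separated from each other, and fewer expressing cells cannot be told apart from less RNA per cell. Whole-animal samples were total RNA with no pull-down, and whether those animals carried the tag is not given in the sources used here. Neither the level of *mec-3* nor markers of PVD, OLL or other cells could be read without gene names, so labels were not checked against them.

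The values are log2 RMA summaries (background-corrected, normalized and summarised over probes) on Affymetrix tiling arrays. Array medians lay between 6.51 and 6.77. Replicates correlated at 0.982 to 0.984 in *mec-3* PVD/OLL and 0.961 to 0.977 in wild-type PVD/OLL. In whole animals the correlation was 0.952 between the wild-type arrays and 0.974 between the *mec-3* arrays. Arrays of 1 kind of sample shared an identical value for 1 to 9 genes and a PVD/OLL and a whole-animal array for 0 genes in each of 24 pairs. How the arrays were normalized together is not stated, so pull-down, cell type and processing cannot be told apart in a PVD/OLL to whole-animal difference.

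Signal in the block ranged from the dimmest to the brightest part of the arrays. Of the 37 members, 8 lay above the array median on all 10 arrays, 11 lay below it on all 10, and 18 crossed it, against 36.2%, 36.6% and 27.2% of all rows. Signals of different genes come from different probes and do not rank amounts of message. The median member measured between 5.74 and 7.13 across the arrays. Replicates of members spread somewhat more than those of other genes, with a median SD within groups of 0.41 (log2) against 0.31 over all rows.

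WBGene00002118 had the highest mean signal of the block, measuring 11.999, 11.65 and 11.78 in wild-type PVD/OLL replicates 1 to 3 and 11.06, 11.71 and 10.97 in *mec-3* PVD/OLL. In whole animals it measured 12.03 and 12.07 in wild type and 11.98 and 12.27 in *mec-3*. All values of this member lay above the 96th percentile of their array, at 96.2 to 98.4. WBGene00002100 was bright and had the narrowest range of all members, 0.71 (log2) over the 10 arrays. It measured 10.99, 11.38 and 10.97 in wild-type and 11.27, 10.90 and 10.74 in *mec-3* PVD/OLL, then 10.68 and 10.73 in wild-type and 10.77 and 11.17 in *mec-3* whole animals. It passed the test in no comparison. WBGene00002101 measured 10.81, 11.33 and 11.87 in wild-type PVD/OLL and 10.95, 10.75 and 10.50 in *mec-3* PVD/OLL. Its whole-animal values were 10.52 and 10.65 in wild type and 10.73 and 10.79 in *mec-3*. The 3 wild-type PVD/OLL values lay above both wild-type whole-animal values, but the difference of 0.75 (log2, SE 0.29) did not pass (limma adjusted p = 0.0754). The call was made after quantile normalization, after median centring and without wild-type PVD/OLL replicate 1 (lowest limma adjusted p = 0.0249). WBGene00002110, also above the upper quartile of every array, measured 10.71, 10.65 and 10.23 in wild-type and 10.32, 10.41 and 9.98 in *mec-3* PVD/OLL. In whole animals it measured 9.79 and 10.83 in wild type and 11.30 and 11.20 in *mec-3*.

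At the other end, WBGene00002091 and WBGene00002102 lay under the lower quartile of every array, at 3.11 to 4.77 and 3.15 to 4.90. No detection calls were used here, so values in this range are not known to lie above background, and differences that end there depend on how background was handled.

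**Figure D1:**
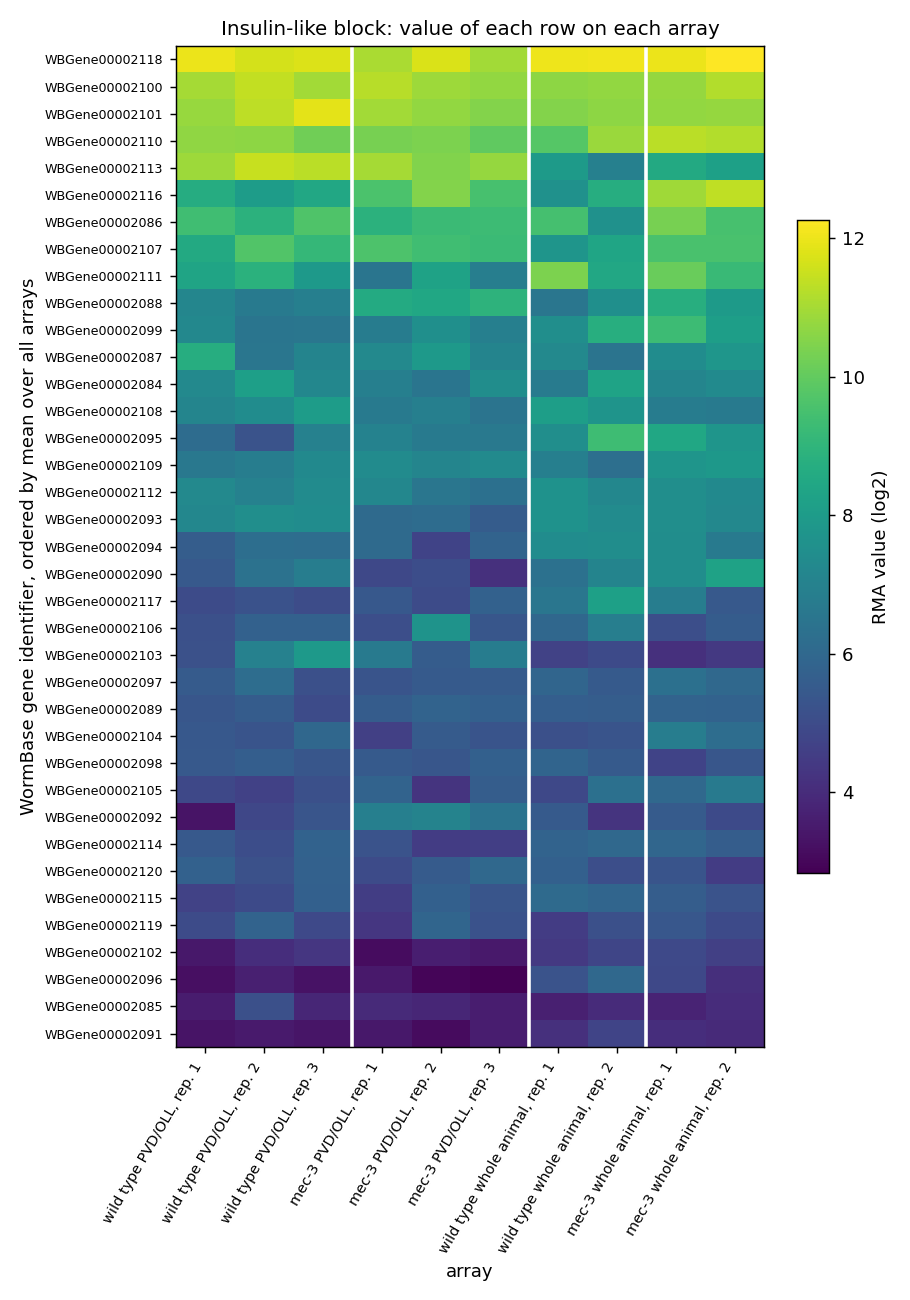
Heat map of the log2 RMA value of each of the 37 members (rows, ordered by mean over all arrays) on each of the 10 arrays (columns, white lines part the 4 groups). WBGene00002118 and WBGene00002100 are bright on every array, WBGene00002091 and WBGene00002102 dim on every array, and WBGene00002113 is brighter on the 6 PVD/OLL arrays than on the 4 whole-animal arrays.

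Setting PVD/OLL against whole animals asks which messages stand higher in the tagged neurons than in the whole larva. In wild type 3 members were higher in PVD/OLL (WBGene00002113, WBGene00002103 and WBGene00002107) and 6 were lower (WBGene00002091, WBGene00002094, WBGene00002095, WBGene00002096, WBGene00002099 and WBGene00002117). Of all 18451 rows, 9.61% were higher and 18.9% lower by the same rule, a limma fit of all 10 arrays with Benjamini-Hochberg adjusted p under 0.05. In *mec-3* 2 members were higher (WBGene00002113 and WBGene00002103) and 12 lower, where 7.59% and 19.1% of all rows were. The share of members lower was 6 of 37 in wild type, near the background, and 12 of 37 in *mec-3*, above it. That excess of calls in *mec-3* rested on 1 array and was not seen without *mec-3* whole-animal replicate 1, which leaves 1 array in its group. Without it the median difference in *mec-3* was -0.38 (log2) for members and -0.26 for all rows. The median member differed by -0.21 (log2) in wild type, the same as the median of all rows, -0.21. In *mec-3* the medians were -0.64 for members and -0.28 for all rows.

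WBGene00002113 had the largest enrichment of the block. It measured 10.90, 11.48 and 11.29 in wild-type PVD/OLL and 10.99, 10.49 and 10.76 in *mec-3* PVD/OLL, against 7.95 and 6.94 in wild-type and 8.57 and 8.18 in *mec-3* whole animals. All 6 PVD/OLL values lay above all 4 whole-animal values, with a gap of 1.92 between the lowest of the first and the highest of the second. The difference was 3.78 (log2, SE 0.32, 95% interval 3.07 to 4.48, limma adjusted p = 0.000286) in wild type, or 13.7-fold, and 2.37 (SE 0.32, 1.67 to 3.07, limma adjusted p = 0.00142) in *mec-3*, or 5.17-fold. Both calls held in all 17 alternatives. The gap between these 2 differences, -1.41 (log2, SE 0.45), did not pass (limma adjusted p = 0.335, and 0.0936 to 0.577 over the alternatives).

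WBGene00002103 was the other member higher in both genotypes. It measured 5.18, 6.99 and 7.89 in wild-type PVD/OLL and 6.69, 5.57 and 6.77 in *mec-3* PVD/OLL. In whole animals it measured 4.68 and 4.95 in wild type and 4.14 and 4.38 in *mec-3*. The groups did not overlap in either genotype, but wild-type PVD/OLL spread over 2.71 (log2). The difference was 1.87 (SE 0.63, limma adjusted p = 0.0467) in wild type and 2.09 (SE 0.63, limma adjusted p = 0.0327) in *mec-3*. The replicate block ended both calls, and array weights or the 5 wild-type arrays alone ended the wild-type call. The wild-type call was lost without any of 8 of the 10 arrays, all but wild-type PVD/OLL replicate 1 and *mec-3* PVD/OLL replicate 2 (highest limma adjusted p = 0.150). The *mec-3* call was lost without *mec-3* PVD/OLL replicate 1 or 3 or either *mec-3* whole-animal array (highest limma adjusted p = 0.150).

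WBGene00002107 passed in wild type only, at 8.55, 9.72 and 9.12 in PVD/OLL against 7.75 and 8.36 in whole animals (difference 1.07, SE 0.32, limma adjusted p = 0.0316). In *mec-3* the same gene measured 9.63, 9.36 and 9.27 in PVD/OLL and 9.56 and 9.57 in whole animals, which overlap. The difference between genotypes, -1.22 (SE 0.46), did not pass (limma adjusted p = 0.422). The wild-type call was lost without wild-type PVD/OLL replicate 2 or wild-type whole-animal replicate 1 (highest limma adjusted p = 0.169).

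Among members lower in PVD/OLL, WBGene00002096, WBGene00002094 and WBGene00002099 passed in both genotypes. WBGene00002096 measured 3.21, 3.64 and 3.28 in wild-type PVD/OLL and 3.48, 2.95 and 2.83 in *mec-3* PVD/OLL, against 5.26 and 6.02 in wild-type and 4.88 and 4.10 in *mec-3* whole animals. Every PVD/OLL value lay under every whole-animal value. The difference was -2.26 (log2, SE 0.33, limma adjusted p = 0.00138) in wild type, past the threshold in all 16 alternatives. In *mec-3* it was -1.41 (SE 0.33, limma adjusted p = 0.0117), lost only without *mec-3* whole-animal replicate 1 (limma adjusted p = 0.110). Its PVD/OLL values lay at percentiles 0.0921 to 3.47 of their arrays, the dim range where the size of a fall depends on background.

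WBGene00002094 measured 5.62, 6.24 and 6.19 in wild-type and 6.08, 4.74 and 5.81 in *mec-3* PVD/OLL, against 7.41 and 7.44 in wild-type and 7.46 and 6.71 in *mec-3* whole animals. The difference was -1.41 (SE 0.39, limma adjusted p = 0.0217) in wild type and -1.54 (SE 0.39, limma adjusted p = 0.0165) in *mec-3*, and the groups did not overlap. The wild-type call was lost without wild-type PVD/OLL replicate 1 or either wild-type whole-animal array (highest limma adjusted p = 0.101), and the *mec-3* call without *mec-3* whole-animal replicate 1 (limma adjusted p = 0.137). WBGene00002099 measured 7.23, 6.49 and 6.52 in wild-type and 6.78, 7.53 and 6.90 in *mec-3* PVD/OLL. Its whole-animal replicates lay well apart, at 7.48 and 8.75 in wild type and 9.30 and 8.10 in *mec-3*. It differed by -1.37 (SE 0.45, limma adjusted p = 0.0427) in wild type and -1.63 (SE 0.45, limma adjusted p = 0.0233) in *mec-3*. Without wild-type whole-animal replicate 2 the first was -0.73 (limma adjusted p = 0.343), and it was also lost without wild-type PVD/OLL replicates 2 or 3 or *mec-3* PVD/OLL replicates 1 or 3. The second was lost without *mec-3* PVD/OLL replicates 1 or 3 or *mec-3* whole-animal replicate 1, where it was -1.03 (limma adjusted p = 0.206).

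The calls of the other 3 members lower in wild type rested on whole-animal replicate 2. WBGene00002095 measured 6.15, 5.23 and 6.97 in wild-type PVD/OLL, and 7.49 and 9.35 in wild-type whole animals. WBGene00002117 measured 4.98, 5.21 and 5.01 in wild-type PVD/OLL, and 6.54 and 8.19 in wild-type whole animals. WBGene00002091 measured 3.34, 3.53 and 3.37 in wild-type PVD/OLL, and 4.14 and 4.77 in wild-type whole animals. In each the replicate 2 value was the higher, and the differences were -2.31, -2.30 and -1.05 (log2, SE 0.55, 0.48 and 0.24, limma adjusted p = 0.0126, 0.00714 and 0.0110). Without that replicate they were -1.38, -1.47 and -0.73, and none passed (limma adjusted p = 0.125, 0.0696 and 0.0932). The count of 9 members called in wild type fell to 3 without it, and the share of all rows called fell from 28.6% to 12.5%. In *mec-3* PVD/OLL WBGene00002095 measured 7.01, 6.72 and 6.65 against 8.45 and 7.75 in whole animals (difference -1.31, limma adjusted p = 0.0992). WBGene00002117 measured 5.42, 4.97 and 5.75 against 6.81 and 5.46 there and its groups overlapped (-0.76, limma adjusted p = 0.258). WBGene00002091 measured 3.42, 3.11 and 3.57 against 4.05 and 3.96 (-0.64, limma adjusted p = 0.0736). In *mec-3* WBGene00002095 and WBGene00002091 passed with array weights and with the 5 *mec-3* arrays alone. The wild-type call of WBGene00002091 was lost after quantile normalization and that of WBGene00002099 after median centring.

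**Figure D2:**
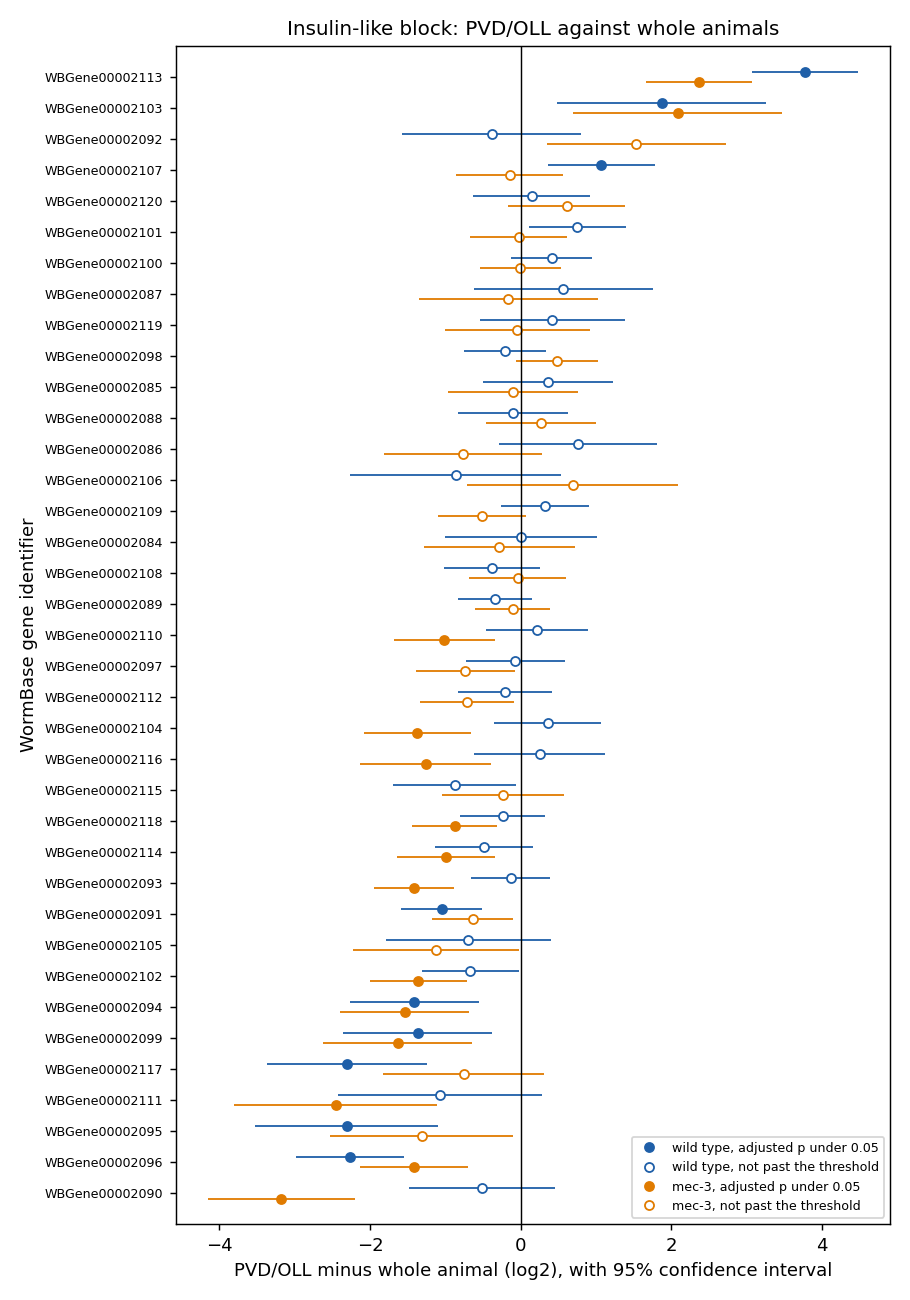
PVD/OLL minus whole animal (log2, horizontal axis) for each of the 37 members (vertical axis, ordered by the mean of both genotypes) in wild type (blue) and *mec-3* (orange), with 95% confidence intervals. Filled points passed the limma test. WBGene00002113 stands at 3.78 and 2.37, WBGene00002096 at -2.26 and -1.41, and WBGene00002090 at -0.51 in wild type and -3.17 in *mec-3*.

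A further 9 members were lower in PVD/OLL by the test in *mec-3* and not in wild type. The largest fall was that of WBGene00002090. It measured 4.89, 5.07 and 4.12 in *mec-3* PVD/OLL and 7.46 and 8.27 in *mec-3* whole animals, a difference of -3.17 (log2, SE 0.44, 95% interval -4.14 to -2.20, limma adjusted p = 0.00149). The value of 4.12 lay under the lower quartile of its array, 4.65, and is not known to lie above background, so no fold is given. The call held in all 16 alternatives. In wild type it measured 5.45, 6.40 and 6.81 in PVD/OLL and 6.35 and 7.10 in whole animals, where the groups overlapped (-0.51, SE 0.44, limma adjusted p = 0.404). WBGene00002093 measured 6.11, 6.18 and 5.59 in *mec-3* PVD/OLL and 7.49 and 7.24 in *mec-3* whole animals (-1.41, SE 0.24, limma adjusted p = 0.00336), also past the threshold in all 17 alternatives. In wild type WBGene00002093 measured 7.21, 7.50 and 7.42 in PVD/OLL and 7.65 and 7.38 in whole animals (-0.13, SE 0.24, limma adjusted p = 0.704).

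WBGene00002111 measured 6.49, 8.28 and 6.87 in *mec-3* PVD/OLL against 10.12 and 9.22 in whole animals (-2.45, SE 0.61, limma adjusted p = 0.0160). In wild type it measured 8.34, 8.86 and 7.89 against 10.39 and 8.47 and did not pass (-1.07, limma adjusted p = 0.208). WBGene00002104 measured 4.61, 5.53 and 5.29 in *mec-3* PVD/OLL against 6.82 and 6.20 in whole animals (-1.37, SE 0.32, limma adjusted p = 0.0129). WBGene00002102 measured 3.15, 3.61 and 3.45 against 4.90 and 4.62 (-1.36, SE 0.29, limma adjusted p = 0.00885), and in wild type 3.42, 4.06 and 4.33 against 4.40 and 4.81 (-0.67, limma adjusted p = 0.106). WBGene00002114 measured 5.24, 4.50 and 4.58 against 5.93 and 5.59 in *mec-3*, and 5.47, 5.06 and 5.80 against 5.83 and 6.02 in wild type, so that in both genotypes the PVD/OLL arrays were the lower. In *mec-3* WBGene00002114 differed by -0.99, WBGene00002116 by -1.26, WBGene00002110 by -1.01 and WBGene00002118 by -0.87 (log2, limma adjusted p = 0.0302 to 0.0363). Quantile normalization ended these 4 calls, and median centring those of WBGene00002116 and WBGene00002118. In all 9 the *mec-3* PVD/OLL arrays lay under the *mec-3* whole-animal arrays, as in 19 members and 43.6% of all rows. WBGene00002092 stood at 1.54 (limma adjusted p = 0.0552), just outside the threshold on the higher side. It passed after quantile normalization, after median centring, with array weights and with the 5 *mec-3* arrays alone, but not with the replicate block. None of the 9 differed between the genotypes by the test of that difference (lowest limma adjusted p = 0.196, WBGene00002090).

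The *mec-3* count moved as single arrays were left out, as did the count over all rows. Leaving out *mec-3* whole-animal replicate 1 gave 3 in place of 14, and leaving out replicate 2 gave 9, while the share of all rows called fell from 26.7% to 10.7% and 10.4%. Leaving out 1 *mec-3* PVD/OLL array gave 9 (replicate 1), 12 (replicate 2) or 7 (replicate 3), against 15.9%, 17.2% and 15.2% of all rows. The 3 calls that held without any 1 array were those of WBGene00002090, WBGene00002093 and WBGene00002113. The share of members under 0 also moved with the scaling: 30 of 37 in *mec-3* on the deposited values, 24 after median centring and 22 after quantile normalization, which took the median of all rows from -0.28 to 0.02. On the deposited values 7 of 37 members and 34.7% of all rows lay above 0 in *mec-3*. The called split of 2 higher to 12 lower became 3 to 10 after centring, where 9.46% of all rows were higher and 14.5% lower. It became 3 to 8 after quantile normalization, where 10.3% were higher and 9.22% lower. In wild type 3 to 6 became 4 to 5 under both, and the shares of all rows became 11.3% higher and 15.8% lower after centring and 13.2% and 12% after quantile normalization. In wild type quantile normalization took the median of all rows from -0.21 to 0.03.

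The enrichments of the genotypes share no arrays. Of the 37 members, 21 lay on the same side of 0 in both, or 56.8%, where 79.5% of all rows did. After quantile normalization the shares were 67.6% of members and 75.6% of rows, and after median centring 59.5% and 78.8%. In 3 members both genotypes called a fall and in 2 both called a rise, against 10.8% and 4.76% of all rows, and 0 members were called in opposite directions.

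Setting the *mec-3* PVD/OLL arrays against the wild-type ones asks which messages recovered from the neurons differ in the mutant. WBGene00002088, WBGene00002092 and WBGene00002116 were higher in *mec-3* PVD/OLL and WBGene00002093 was lower (limma on the 6 PVD/OLL arrays, adjusted p under 0.05). These are 3 of 37 higher and 1 of 37 lower, where 2.58% and 3.55% of all rows passed in each direction. Groups did not overlap in 6 members, against 27.4% of all rows. The median member differed by -0.16 and the median row by -0.07 (log2). A difference of at least 2-fold was seen in 6 of 37 members, a larger share than the 6.66% of rows. Members also spread more within groups, with a median SD of 0.41 against 0.31.

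WBGene00002088 measured 7.14, 6.71 and 6.91 in wild-type PVD/OLL and 8.59, 8.43 and 8.92 in *mec-3* PVD/OLL. Every *mec-3* array lay at least 1.29 (log2) above every wild-type array. The rise was 3.30-fold (log2 difference 1.72, SE 0.21, 95% interval 1.25 to 2.20, limma adjusted p = 0.00259), and it passed in all 13 alternatives. In whole animals it went the same way, from 6.53 and 7.52 to 8.75 and 7.98, without passing (1.34, SE 0.44, limma adjusted p = 0.144).

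WBGene00002093 measured 7.21, 7.50 and 7.42 in wild-type PVD/OLL against 6.11, 6.18 and 5.59 in *mec-3*, so that every wild-type array lay at least 1.03 (log2) above every *mec-3* array. The fall was 2.68-fold (log2 difference -1.42, SE 0.21, 95% interval -1.91 to -0.93, limma adjusted p = 0.00808), and it passed in all 13 alternatives. In whole animals WBGene00002093 measured 7.65 and 7.38 in wild type and 7.49 and 7.24 in *mec-3* (-0.14, SE 0.28, 95% interval -0.82 to 0.53, limma adjusted p = 0.840). The gap between its differences in PVD/OLL and in whole animals, -1.28 (SE 0.34), did not pass (limma adjusted p = 0.239).

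WBGene00002092 had the largest difference, from 3.31, 4.84 and 5.32 in wild-type to 6.91, 7.04 and 6.41 in *mec-3* PVD/OLL. The difference was 2.30 (log2, SE 0.47, limma adjusted p = 0.0284). The wild-type value of 3.31 lay under the lower quartile of its array and is not known to lie above background, so no fold is given. The call was lost without wild-type PVD/OLL replicate 2 or any *mec-3* PVD/OLL array (highest limma adjusted p = 0.107). In whole animals WBGene00002092 measured 5.49 and 4.26 in wild type and 5.54 and 4.96 in *mec-3*, which overlap (0.38, limma adjusted p = 0.731).

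WBGene00002116 measured 8.66, 8.03 and 8.50 in wild-type PVD/OLL and 9.58, 10.53 and 9.52 in *mec-3* PVD/OLL. The rise was 2.79-fold (log2 difference 1.48, SE 0.31, limma adjusted p = 0.0292), and each array left out ended the call (highest limma adjusted p = 0.0894) with a difference of 1.15 to 1.66. The next member outside the threshold was WBGene00002090, at 5.45, 6.40 and 6.81 in wild-type and 4.89, 5.07 and 4.12 in *mec-3* PVD/OLL. The groups did not overlap, and the difference of -1.53 (SE 0.38, limma adjusted p = 0.0566) passed with array weights, with all 10 arrays in the fit and without wild-type PVD/OLL replicate 1.

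**Figure D3:**
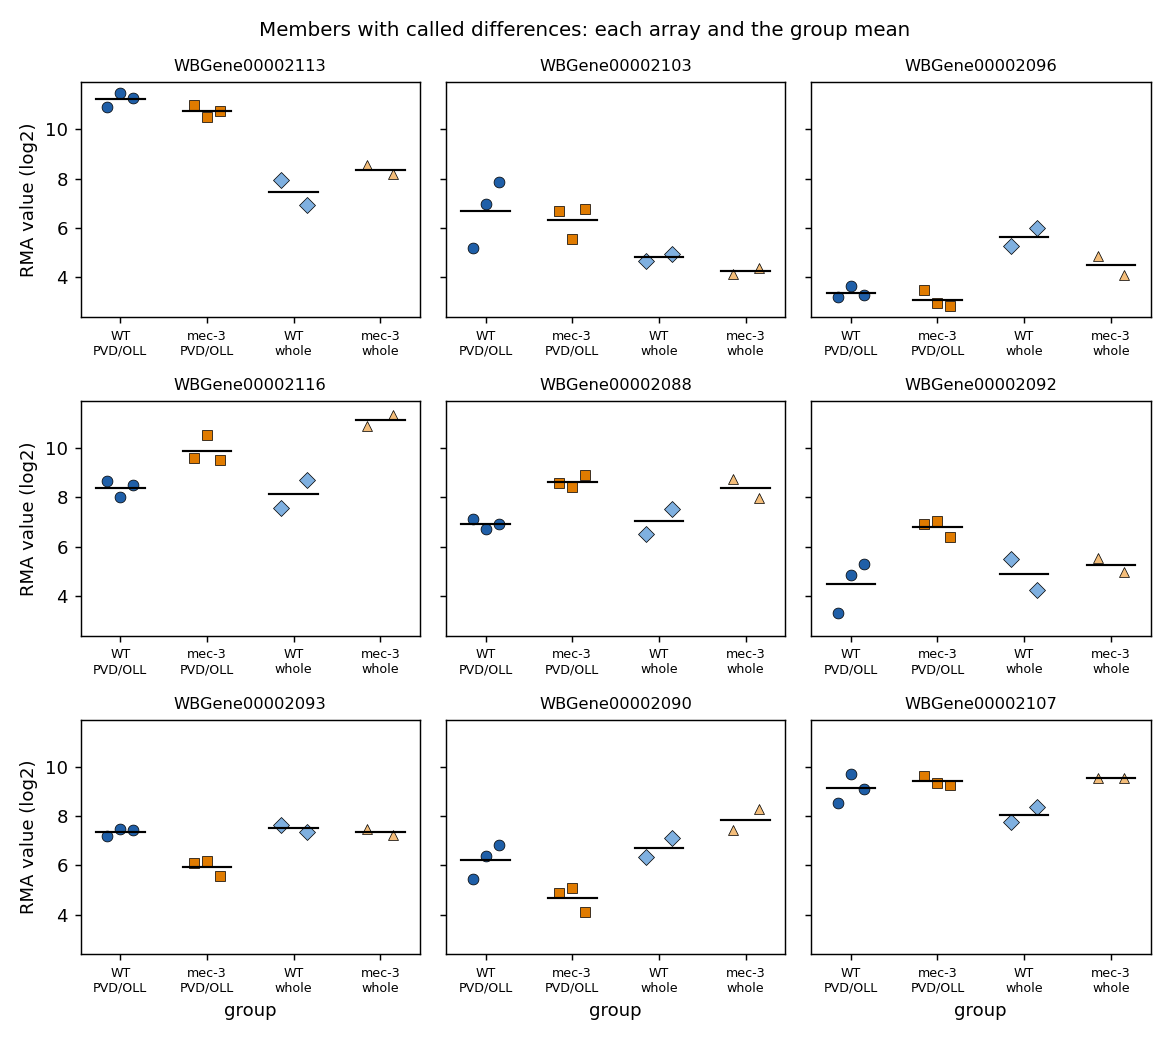
Log2 RMA value of 9 members with called differences on every array (points) in the 4 groups, with the group mean as a line. WBGene00002113 is high on all PVD/OLL arrays, WBGene00002116 is high in *mec-3* in both kinds of sample, and WBGene00002093 is low only on the 3 *mec-3* PVD/OLL arrays, at 5.59 to 6.18.

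In whole animals, the same genotype comparison called WBGene00002116 and WBGene00002107 higher in *mec-3* and no member lower (limma on 4 arrays, adjusted p under 0.05), where 2.67% and 2.88% of all rows passed in each direction. At an unadjusted p under 0.05 there were 9 members of 37, against 21.5% of all rows. WBGene00002116 measured 7.58 and 8.71 in wild type and 10.92 and 11.36 in *mec-3*. The rise was 7.96-fold (log2 difference 2.99, SE 0.43, 95% interval 1.96 to 4.03, limma adjusted p = 0.0186), the largest of the block between genotypes. The call was lost without either *mec-3* array, which leaves 1 array in that group, and fewer of all rows were called there too. The difference was then 3.21 without *mec-3* replicate 1 and 2.77 without replicate 2. It was 2.43 to 3.55 as each array was left out. WBGene00002116 was the single member called in both genotype comparisons, which share no arrays, and was higher in *mec-3* in both. Of all rows, 2.82% were called in both. The gap between its differences, -1.51 (SE 0.55), did not pass (limma adjusted p = 0.407).

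WBGene00002107 measured 7.75 and 8.36 in wild-type and 9.56 and 9.57 in *mec-3* whole animals. The rise was 2.84-fold (log2 difference 1.51, SE 0.31, limma adjusted p = 0.0474), and its call was lost after quantile normalization. It was also lost without wild-type replicate 1 or either *mec-3* array, which leaves 1 array in a group. Without a *mec-3* array fewer of all rows were called too. The difference was 1.21 to 1.81 as each array was left out. The replicate block also ended the call (limma adjusted p = 0.0519). In PVD/OLL WBGene00002107 measured 8.55, 9.72 and 9.12 in wild type and 9.63, 9.36 and 9.27 in *mec-3*, which overlap (0.29, limma adjusted p = 0.635). Outside the threshold lay WBGene00002104 at 1.30, WBGene00002109 at 1.21 and WBGene00002108 at -1.18 (log2, limma adjusted p = 0.0722, 0.0833 and 0.0728). Each passed with all 10 arrays in the fit, and WBGene00002108 and WBGene00002109 also with the dimmest 50% of rows left out. WBGene00002108 measured 8.12 and 7.69 in wild-type and 6.78 and 6.68 in *mec-3* whole animals, and 7.12, 7.40 and 8.06 against 6.72, 6.92 and 6.44 in PVD/OLL. Its *mec-3* values lay under its wild-type values in both kinds of sample, and neither test passed (PVD/OLL difference -0.84, limma adjusted p = 0.119). With 2 arrays a group, non-overlap was common: 21 members and 50.5% of all rows.

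**Figure D4:**
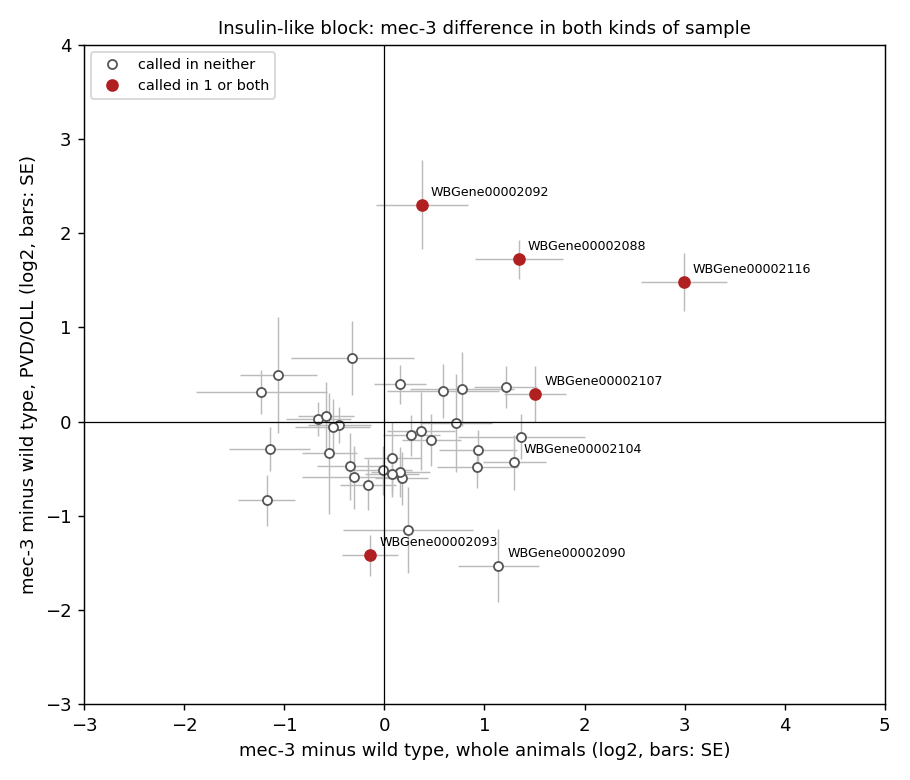
*mec-3* minus wild type (log2) in whole animals (horizontal axis) and in PVD/OLL (vertical axis) for the 37 members, with bars of 1 SE and the members called in either comparison in red. WBGene00002116 and WBGene00002088 lie high on both axes, WBGene00002092 at 2.30 in PVD/OLL and 0.38 in whole animals, and WBGene00002090 at -1.53 and 1.14.

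The genotype differences of PVD/OLL and whole animals were set side by side for the block. Of 37 members, 18 (48.6%) lay on the same side of 0 in both, where 68.6% of all rows did. After quantile normalization these shares were 48.6% and 65.7%, and after median centring 43.2% and 67.3%. When the gap between both differences was tested in 1 limma fit of the 10 arrays, 0 members passed, where 0.00542% of all rows did. At an unadjusted p under 0.05 there were 11 members, against 9.80% of all rows. The median difference of differences was -0.46 (log2) over members and -0.05 over all rows, and the median 95% interval of a member reached 1.03 to either side.

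The other 17 members passed in none of the 5 comparisons. WBGene00002089 had the lowest spread within groups, an SD of 0.19 (log2), and stayed between 4.98 and 5.82. WBGene00002106 had the highest spread, an SD of 0.90: it measured 5.09, 7.68 and 5.34 in *mec-3* PVD/OLL, so that replicate 2 stood alone, and 5.11 to 6.85 in the other groups. WBGene00002086 measured 9.37, 8.90 and 9.65 in wild-type and 8.89, 9.26 and 9.29 in *mec-3* PVD/OLL. In whole animals it measured 9.49 and 7.59 in wild type and 10.31 and 9.50 in *mec-3* (1.37, SE 0.64, limma adjusted p = 0.287). WBGene00002087 lay between 6.48 and 8.72 and WBGene00002084 between 6.49 and 8.32, with groups that overlapped in both enrichments. WBGene00002085, WBGene00002105 and WBGene00002119 lay between 3.56 and 5.13, 4.26 and 6.69, and 4.31 and 5.89. WBGene00002098 stayed between 4.74 and 5.88 and WBGene00002120 between 4.52 and 6.004. WBGene00002115 stood at -0.87 in wild-type PVD/OLL against whole animals (limma adjusted p = 0.0964), and WBGene00002097 and WBGene00002112 at -0.73 and -0.71 in *mec-3* (limma adjusted p = 0.0921 and 0.0855), each outside the threshold. WBGene00002115 passed without wild-type PVD/OLL replicate 3 and WBGene00002112 without *mec-3* PVD/OLL replicate 1. WBGene00002097 passed with array weights and with the 5 *mec-3* arrays alone.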

How the data were processed

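The authors deposited log2 values of 18451 gene identifiers on 10 arrays, made with RMA (no version named) per the submitters' processing notes, with 0 missing. The log2 scale was inferred from the range of the values. The sources used here give no gene models, genome build, probe assignment or filter. Groups and replicate numbers came from the sample titles. The deposited values were tested without a filter by limma 3.58.1 (lmFit and eBayes) in R 4.3.3, two-sided, with Benjamini-Hochberg adjustment over all 18451 rows; only members of the block are printed. Genotypes were compared with the 6 PVD/OLL arrays or the 4 whole-animal arrays, and the enrichments and their difference in 1 fit of all 10. Differences are log2 and carry limma's moderated SE (standard error) or a 95% interval; called means adjusted p under 0.05. The number of arrays limits the precision. The fits were tested on simulated data. The members and lists were chosen with earlier results of these data known. By the rule for named members, those called or brightest are given with their value on every array and the rest mostly by range. Lists of receptor, signalling, peptide-processing, target and cell-type genes were not used, because identifiers were not paired with symbols. Alternatives were 2 other scalings, a filter on dim genes, another prior, array weights, a replicate block, other arrays in the fit, a threshold of 0.10 for the adjusted p, and the loss of any 1 array.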

Additional observations from a re-analysis of the deposited data

Results flagged for a closer look

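WBGene00002090 moved in opposite directions with the genotype: all 3 *mec-3* PVD/OLL arrays lay under all wild-type PVD/OLL arrays, and both *mec-3* whole-animal arrays lay above both wild-type ones. No other member did, and 1.04% of all rows did. The difference of differences was -2.67 (log2, SE 0.62), the largest of the block, and did not pass (limma adjusted p = 0.196, and 0.105 to 0.502 over 15 alternatives).

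WBGene00002104 had opposite enrichments in the genotypes: all wild-type PVD/OLL arrays, at 5.43, 5.29 and 5.99, lay above the wild-type whole-animal arrays, at 5.15 and 5.28, and all *mec-3* PVD/OLL arrays lay under the *mec-3* whole-animal arrays. It was the single such member, where 1.65% of all rows did so. In wild type the lowest PVD/OLL value was close to the highest whole-animal value. The difference of differences was -1.73 (log2, SE 0.46) and did not pass (limma adjusted p = 0.235, and 0.154 to 0.442 over 15 alternatives).

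Groups of 2 or 3 arrays were not tested for outlying arrays.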

How the results depend on the processing

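All 29 called differences of members kept their direction in each alternative. With an array left out or weighted this was fixed in advance, because the compared groups did not overlap in any of them. Another prior, a filter, other arrays in the fit or another threshold leave the group means as they are. Only the 2 other scalings and, for the enrichments, the replicate block could turn a direction. Of the 29, 7 stayed past the threshold in all: WBGene00002113 in both enrichments, WBGene00002096 in the wild-type and WBGene00002090 in the *mec-3* enrichment, WBGene00002093 in the *mec-3* enrichment and between genotypes in PVD/OLL, and WBGene00002088 between genotypes in PVD/OLL. With each array left out the count of members called was 2 to 4 (4 with all) between genotypes in PVD/OLL, 0 to 3 (2 with all) in whole animals, 3 to 9 (9 with all) for the wild-type and 3 to 17 (14 with all) for the *mec-3* enrichment. It was 0 for the difference of differences under each setting. The share of all rows called moved too. With 1 PVD/OLL array left out it was 2.45% to 5.61% (6.13% with all) between genotypes in PVD/OLL. For the wild-type enrichment that share was then 20.5% to 30.6%, and for the *mec-3* enrichment 15.2% to 30.6%. The share also moved as whole-animal arrays were left out. Between genotypes in whole animals it rose without wild-type replicate 1 and fell without each other array. Each such fit leaves 1 array in a group, so the lowest count there, 0, says nothing particular about the block. A moving count was therefore not particular to the block. In whole animals the count of 2 (5.54% of all rows called) became 1 (3.89%) after quantile normalization, 4 of 18 (17.3%) with the dimmest 50% of rows left out, 6 (13.4%) with all 10 arrays in the fit and 5 (10.8%) at an adjusted p under 0.10. The wild-type enrichment count of 9 (28.6%) became 4 (33.1%) and the *mec-3* count of 14 (26.7%) became 7 (33.0%) with the dimmest 50% left out, where 18 of the 37 members were tested. With the 5 arrays of a genotype alone they were 5 (13.3%) and 18 (37.2%), and with array weights 6 (19.9%) and 18 (36.9%). Whether the replicate numbers mark pairs could not be settled. Deviations of same-numbered arrays correlated at -0.0576 to 0.186, and 3 of the 6 PVD/OLL arrays correlated best with their own number. In groups of 2 arrays the deviations mirror each other, so both whole-animal replicates gave the same value between genotypes, 0.047. With the replicate block the counts were 3 (4.57% of all rows) between genotypes in PVD/OLL, 1 (5.58%) in whole animals, 7 (25.2%) for the wild-type and 9 (24.7%) for the *mec-3* enrichment, and 9 called differences were lost, among them WBGene00002107 between genotypes in whole animals (limma adjusted p = 0.0519). The cause of these changes was not tested. The shares of members on the same side of 0 under other scalings were chosen after seeing the data. With the dimmest 50% left out they were 9 of 18 between genotypes and 8 of 18 for the enrichments, against 74.1% and 76.7% of all rows. Where an array was left out of a whole-animal pair, the lone array was assumed to vary like the other groups.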
